A study of Mus musculus with 4 samples.

Results

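Ephrins, Eph receptors, semaphorins, plexins and neuropilins are the cell-surface and secreted guidance molecules that tell a cell whether to approach or retreat from its neighbours. Their transcripts were measured by RNA sequencing in mouse liver tumours and normal liver. All gene rows whose symbol names an ephrin, an Eph receptor, a semaphorin, a plexin or a neuropilin were taken, which gave 52 of the 25793 genes in the count tables. They are 8 ephrin genes, 13 Eph receptor genes, 20 semaphorin genes, 9 plexin genes and 2 neuropilin genes. The choice left out 1 further Eph receptor gene, which is not analysed here. Of the 4 libraries, 2 were labelled as liver tumours of beta-2SP+/- ; SMAD3+/- mice, heterozygous for beta-2 spectrin and for its partner in TGF-beta signalling, Smad3. The other libraries were labelled as normal liver, 1 from a mouse of that same double heterozygous genotype and 1 from a wild type mouse. By these genotype labels, both tumours and 1 of the normal livers share the same pair of heterozygous alleles, and no treatment is named. The sources used here do not give age, sex, strain or the number of animals behind each library. The p-values of the main test below therefore rest only on spread between the tumour libraries, which may be technical. No spread between normal livers enters them.

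Ephrins and Eph receptors are both bound to membranes, so they signal where cells touch, and in both directions. Ephrin-A ligands hang on a lipid anchor, ephrin-B ligands cross the membrane, and Eph receptors are receptor tyrosine kinases. Semaphorins signal mainly through plexins, whose intracellular part acts on small GTPases and the cytoskeleton. Class 3 semaphorins are secreted and mostly need a neuropilin beside the plexin, whereas classes 4 and 6 are membrane proteins. In liver these families are best known for the growth and patterning of blood vessels and for the boundaries between epithelial cells.

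Library depth ran between 11049931 and 13295216 gene counts in the tumours and between 15950426 and 18448621 in the normal tables. The normal tables were not independent of each other. At a mean of 1 to 5 counts, 13.1% of 2299 genes had the same count in both tumours, where separate libraries of these depths would give 22.8%. The share was 56.8% of 2632 genes in both normal tables, where 29.3% would be given. Of the guidance genes, 21 had equal counts in both normal tables, 10 of them above 0. The other 31 had lower unscaled counts in the double heterozygous table, which has fewer gene counts in all. Since such tables cannot serve as independent replicates, their rounded mean stands as 1 library, called normal liver here. The tables are not identical, and 4.41% of 8322 genes with at least 10 CPM in a table were over 2-fold apart. The submitters' short descriptions read Elf-Tcell for tumour 1 and Smad-Tcell for tumour 2, although their genotype labels are equal, and name hepatocytes for the normal livers. Whether the prefixes mark a difference between the tumours is not stated; the tumours were taken as 2 replicates by their genotype labels, and their values are given one by one. Markers of other cells were checked against these labels. The 11 T cell marker genes listed summed to 1.01 and 1.66 CPM (counts scaled to the library size) in tumours 1 and 2 against 11.3 CPM in normal liver, with 7 of them, Cd3d, Cd3e, Cd3g, Cd4 and Cd8a included, at 0 in both tumours. The 10 hepatocyte markers summed to 2100 and 696 CPM in the tumours against 270000 CPM in normal liver, the 12 endothelial markers to 5.73 and 17.7 CPM against 476 CPM, and the 10 Kupffer cell and macrophage markers to 62.8 and 5.8 CPM against 215 CPM. The 10 bile duct markers stood at 3020 and 2530 CPM in the tumours against 105 CPM, the 12 stellate cell and fibroblast markers at 5.73 and 816 CPM against 261 CPM, and the 8 neural and Schwann cell markers at 224 and 253 CPM against 1.75 CPM, of which Ncam1 was 220.6 and 240.5 CPM against 0.11 CPM. The 5 B cell markers were at 0 and 0.0537 CPM against 4.49 CPM. Not every gene followed the sum of its list. Of the stellate cell and fibroblast markers, Col1a1, Col1a2, Col3a1, Acta2, Pdgfrb and Des were above normal liver in tumour 2. Reln, Dcn, Rgs5, Hgf, Lrat and Lum were below normal liver in both tumours. In tumour 2, Col1a2 stood at 280.7 against 8.33 CPM, and Reln at 0.161 against 116 CPM. Of the bile duct markers, Spp1 alone stood at 1526 and 1585 CPM, and Ggt1 had 0 and 12 counts against 54 and 78. Epcam and Cftr were above normal liver in tumour 1 but below it in tumour 2, at 0.215 against 5.15 CPM and 0.376 against 1.75 CPM. Of these lists, 8 hepatocyte, 4 endothelial, 3 Kupffer cell and macrophage and 1 stellate cell marker fell, and 3 bile duct markers and Ncam1 rose. Their part in the results below was not tested.

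In the tumours, 4 guidance ligand genes and 1 receptor gene rose, and 2 receptor genes fell. The class 3 semaphorin genes Sema3c and Sema3e, the ephrin genes Efnb2 and Efna4 and the receptor gene Epha4 rose, while the receptor genes Epha1 and Plxnc1 fell. This was tested with edgeR's quasi-likelihood test on the counts, comparing both tumours with the 1 normal library, with a Benjamini-Hochberg adjusted p under 0.05 over all 14468 genes tested. Of the 52 guidance genes 44 passed the filter on low counts, 5 rose and 2 fell. Over all genes tested, 2.23% rose and 5.19% fell, 7.42% in either direction (322 and 751 genes; without scaling of the libraries 635 and 472). Members that entered the test only through the group in which they are high had to differ, so these counts are a description. The fit has 1 residual degree of freedom, which comes from the tumours. In bulk tissue, fewer cells of a type and less RNA per cell cannot be told apart.

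By role, the calls fell as follows. Among 26 ligand genes tested 4 rose and 0 fell by edgeR (8 higher and 2 lower at an unadjusted p under 0.05, and 8 and 2 by DESeq2), and among 18 receptor genes 1 rose and 2 fell (4 higher and 4 lower unadjusted, and 4 and 3 by DESeq2). Over all members 12 were higher and 6 lower at an unadjusted p under 0.05 (12.5% and 15.5% of all genes tested), and 12 and 5 by DESeq2 (12.4% and 12.3%). Both tumours were above normal liver in 27 of the 44 genes and both below in 10, against 43.1% and 40.1% of all genes tested, and normal liver lay between the tumours in 7. Tumours on the same side of normal liver were thus common, and the normal tables share counts. Statements below that tumours and normal tables did not overlap therefore only describe the counts. The median log2 fold change of tumours over normal liver was 3.13 for the ligands and 0.72 for the receptors, and 2.10 for all 44, against 0.19 for all genes tested. With genes at 0 in both normal tables taken at their lower bound, the medians were 2.19 for the ligands and 1.92 for all 44. The difference between ligands and receptors itself was not tested.

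**Figure D1:**
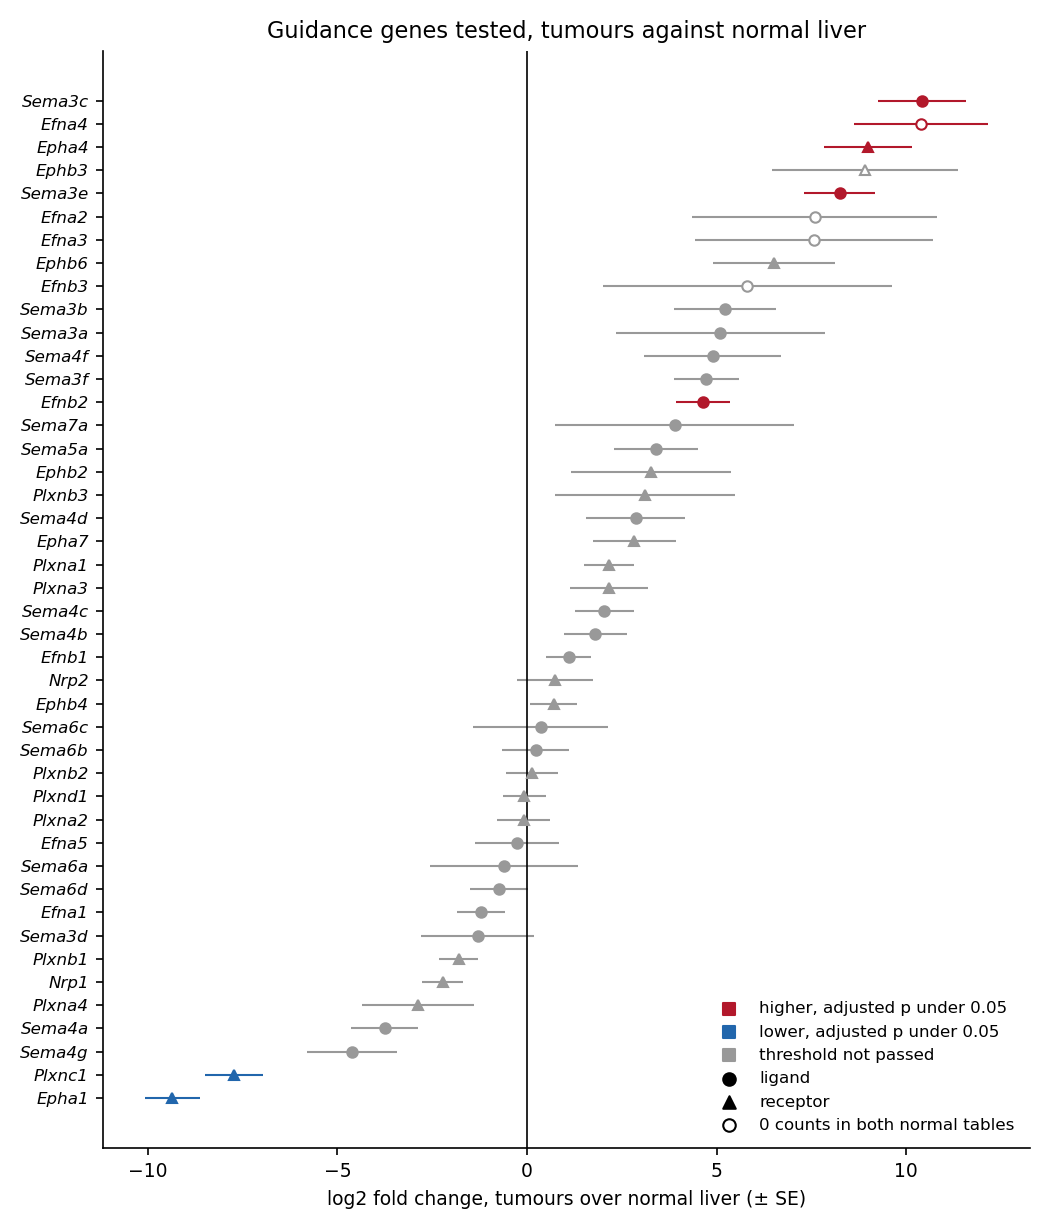
Log2 fold change of tumours over normal liver (x axis, points with SE bars) for the 44 guidance genes tested, with circles for ligands, triangles for receptors and open symbols for genes with 0 counts in both normal tables, whose fold changes have no reliable size. Sema3c (10.42), Efna4, Epha4, Sema3e and Efnb2 are past the threshold on the right, Plxnc1 and Epha1 (-9.35) on the left.

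The promoters of the 7 genes that passed the test are shown because the genes moved strongly and in opposite directions. They are the 250 bases before the annotated start, 5′ to 3′ on the gene's strand, from RefSeq on build GRCm38.p6, which is not the build named for the counts (mm9). Capitals mark matches, on either strand, to 4 short motifs: the GC box GGGCGG, the SMAD box CAGAC, the AP-1 site TGANTCA and the TEAD site GGAATG. No 2 matches shared a base.
Sema3c (chr5:17574566-17574815, plus strand): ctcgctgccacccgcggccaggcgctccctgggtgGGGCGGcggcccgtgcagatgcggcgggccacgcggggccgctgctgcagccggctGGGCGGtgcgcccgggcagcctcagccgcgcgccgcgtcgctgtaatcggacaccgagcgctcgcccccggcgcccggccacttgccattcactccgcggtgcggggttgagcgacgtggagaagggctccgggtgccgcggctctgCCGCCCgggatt
Sema3e (chr5:14025026-14025275, plus strand): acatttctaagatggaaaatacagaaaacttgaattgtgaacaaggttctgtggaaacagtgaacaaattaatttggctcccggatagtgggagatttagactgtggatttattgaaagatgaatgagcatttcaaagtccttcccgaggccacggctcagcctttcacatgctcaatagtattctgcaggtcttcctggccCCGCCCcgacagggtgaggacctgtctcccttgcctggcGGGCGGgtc
Efna4 (chr3:89338029-89338278, minus strand): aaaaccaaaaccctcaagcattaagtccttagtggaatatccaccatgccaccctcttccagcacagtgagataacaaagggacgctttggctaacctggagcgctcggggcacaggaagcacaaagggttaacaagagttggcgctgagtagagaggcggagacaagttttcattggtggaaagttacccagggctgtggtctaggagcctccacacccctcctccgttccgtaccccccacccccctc
Efnb2 (chr8:8661243-8661492, minus strand): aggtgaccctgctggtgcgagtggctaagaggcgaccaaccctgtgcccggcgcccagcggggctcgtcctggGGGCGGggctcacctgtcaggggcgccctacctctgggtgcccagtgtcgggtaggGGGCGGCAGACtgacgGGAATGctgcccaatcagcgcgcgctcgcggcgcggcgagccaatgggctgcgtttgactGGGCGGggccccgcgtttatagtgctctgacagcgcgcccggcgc
Epha4 (chr1:77515089-77515338, minus strand): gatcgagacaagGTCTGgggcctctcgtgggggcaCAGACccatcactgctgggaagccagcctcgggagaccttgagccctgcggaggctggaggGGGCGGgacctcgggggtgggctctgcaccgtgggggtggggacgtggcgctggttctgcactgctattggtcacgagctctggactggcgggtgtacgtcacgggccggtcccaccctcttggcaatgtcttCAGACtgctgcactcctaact
Epha1 (chr6:42373269-42373518, minus strand): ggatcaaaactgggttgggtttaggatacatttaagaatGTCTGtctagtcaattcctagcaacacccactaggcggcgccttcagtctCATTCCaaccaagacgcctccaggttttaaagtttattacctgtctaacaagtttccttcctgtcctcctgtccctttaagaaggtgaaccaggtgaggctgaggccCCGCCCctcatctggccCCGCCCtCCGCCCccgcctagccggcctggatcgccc
Plxnc1 (chr10:94944846-94945095, minus strand): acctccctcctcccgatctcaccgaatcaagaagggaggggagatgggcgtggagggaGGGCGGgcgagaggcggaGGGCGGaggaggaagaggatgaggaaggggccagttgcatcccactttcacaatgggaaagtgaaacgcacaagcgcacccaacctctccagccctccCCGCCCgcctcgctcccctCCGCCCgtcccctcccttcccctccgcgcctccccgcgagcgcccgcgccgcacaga
A GC box was found in 6 of the 7 promoters and in 32.7% of the 32851 promoters in the table. A SMAD box was found in Efnb2, Epha4 and Epha1, and in 42.2% of all promoters. The TEAD letters were found in Efnb2 and Epha1 (12.6% of all promoters), and the AP-1 letters in none of the 7 (6.75%). CpG dinucleotides numbered 39 in the Sema3c promoter, 27 in Efnb2, 22 in Plxnc1, 14 in Epha4, 9 in Epha1 and 7 each in Sema3e and Efna4, with a median of 6 over all promoters. A GC box was in 4 of the 5 promoters of genes that rose and in both of genes that fell. A match is a description of letters, not a binding site.

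Per kilobase of exon, class 3 semaphorins had the largest summed level of the ligand families in the tumours, most of it from Sema3c. Sema3c, a secreted semaphorin that acts through neuropilins and plexins and is needed for the outflow tract of the heart, had 17564 and 17655 counts in tumours 1 and 2, against 6 and 8 counts in the normal tables labelled double heterozygous and wild type. That was 1065 ± 167 CPM (SD, n = 2) in the tumours against 0.767 CPM in normal liver, scaled by TMM, with a log2 fold change of 10.42 (SE 1.16, edgeR adjusted p = 0.0252). Pooled over the tumours the ratio was 1370 (exact 95% interval of counting error 665 to 3410). Both tumours lay far above both normal tables and within 1.25-fold of each other. Per kilobase of exon, Sema3c was the most abundant of the 52 guidance transcripts in the tumours, at 215 and 173 CPM per kb, and ranked 30 in normal liver at 0.140 CPM per kb.

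Sema3e, the ligand that binds plexin D1 directly and steers blood vessels, had 1810 and 1548 counts in the tumours against 2 and 4 in the normal tables. The log2 fold change was 8.25 (SE 0.94, edgeR adjusted p = 0.0256), and the pooled ratio was 305 (exact 95% counting interval 104 to 1480). Sema3f, a repellent ligand of neuropilin 2, had 1759 and 1155 counts in the tumours against 27 and 35. It lay just outside the threshold, with a log2 fold change of 4.73 (SE 0.86, edgeR adjusted p = 0.0535), and was past it in 6 of 8 alternative fits. Sema3b, long studied as a candidate tumour suppressor of human lung, had 164 and 717 counts against 6 and 6 (log2 fold change 5.22, SE 1.34, edgeR adjusted p = 0.0974). In these genes both tumours stood above both normal tables.

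The remaining class 3 genes were low. Sema3a, the founding collapse factor of nerve growth cones, had 6 and 143 counts in tumours 1 and 2 against 1 and 1, so that nearly all of its tumour signal came from tumour 2. Sema3d had 23 and 11 counts against 22 and 26, and Sema3g, which is made by vessels, had 1 and 9 against 0 and 0 and did not pass the filter. Summed per kilobase, the class 3 genes stood at 270 and 215 CPM per kb in the tumours and at 1.71 CPM per kb in normal liver. Sema3c made up 79.6% and 80.6% of the tumour sums, whereas Sema3f made up 56.9% of the small normal sum. Sema3a, Sema3c, Sema3d and Sema3e all lie on chromosome 5.

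Membrane-bound class 4 semaphorins showed the opposite leading gene, since the 2 that dominate normal liver were low in the tumours. Sema4g had 783 and 161 counts in the tumours against 6572 and 7273 in the normal tables, and was the most abundant guidance transcript of normal liver per kilobase at 167 CPM per kb, against 11.6 and 1.90 CPM per kb in the tumours. Its log2 fold change of -4.63 did not pass the test (SE 1.19, edgeR adjusted p = 0.0972), and the tumours were 6.03-fold apart. Sema4a, which acts on T cells and on photoreceptors, had 68 and 294 counts against 1199 and 1317 (log2 fold change -3.76, SE 0.88, edgeR adjusted p = 0.0841). For both genes DESeq2 gave adjusted p values under the threshold, 0.000548 for Sema4g and 0.00211 for Sema4a. All counts in the tumours lay below all counts in the normal tables.

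The other class 4 genes stood above normal liver in each tumour, as did 43.1% of all genes tested. Sema4d and Sema4f passed the filter on low counts only through the tumours, so this is only a description. By edgeR, 0 of the other class 4 genes passed the test, with Sema4f at an unadjusted p under 0.05 and called by DESeq2. Sema4b led the class in the tumours with 1586 and 797 counts against 185 and 207 (log2 fold change 1.80, SE 0.83, edgeR adjusted p = 0.243). Sema4c, a ligand of plexin B2, had 281 and 320 counts against 37 and 44, and Sema4d, the ligand of plexin B1 that also acts in the immune system, had 128 and 80 against 8 and 8. Sema4f had 38 and 205 counts against 2 and 2. Summed over class 4, the level was 46.3 and 24.7 CPM per kb in the tumours and 214 CPM per kb in normal liver, of which Sema4g made up 78.1%. In the tumours Sema4b was the leading member, with 57.2% and 42.9% of the sum.

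Classes 5 to 7 stayed low, and none of their members passed the test by edgeR; Sema5a was at an unadjusted p under 0.05 and called by DESeq2. Sema5a, a membrane semaphorin with thrombospondin repeats, had 121 and 196 counts in the tumours against 7 and 9 (log2 fold change 3.40, SE 1.12, edgeR adjusted p = 0.148). Sema5b had 0 and 0 counts against 2 and 2 and was not tested. In class 6, Sema6b had 105 and 281 counts against 81 and 91, Sema6d 102 and 189 against 121 and 138, and Sema6c 10 and 19 against 3 and 10. Sema6a had 247 and 7 counts in tumours 1 and 2 against 111 and 126, so the tumours lay on either side of normal liver. Sema7a, the lipid-anchored semaphorin whose receptor is plexin C1, had 1 and 64 counts against 1 and 1 (log2 fold change 3.90, SE 3.15, edgeR adjusted p = 0.459).

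**Figure D2:**
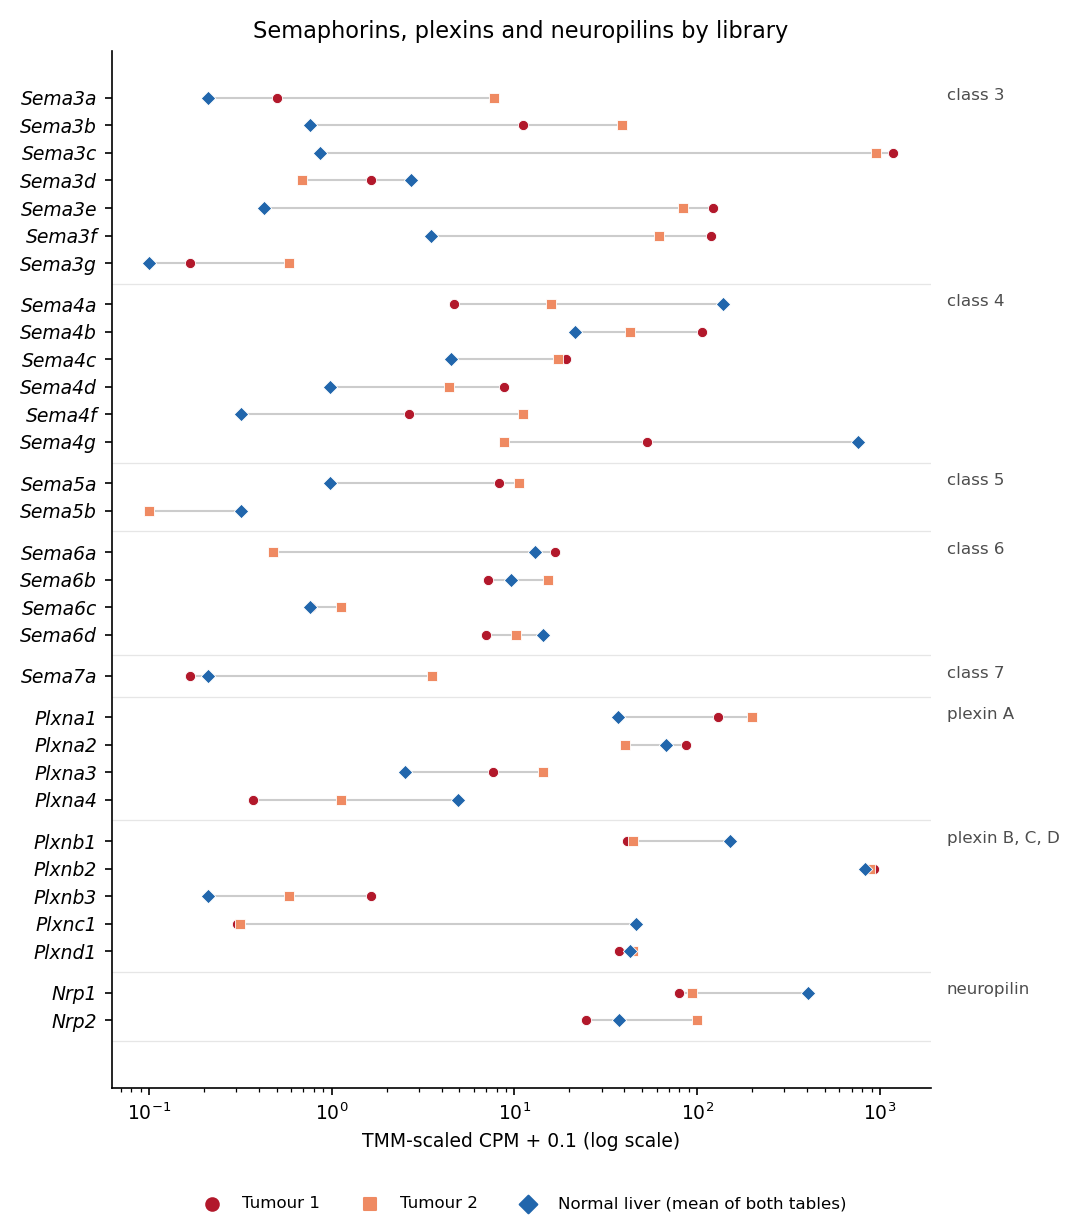
TMM-scaled CPM plus 0.1 on a log axis for each semaphorin, plexin and neuropilin gene in tumour 1, tumour 2 and normal liver (markers that coincide overlap, with normal liver on top). Sema3c, Sema3e and Sema3f have both tumours far to the right of normal liver, Sema4a, Sema4g and Plxnc1 far to the left, and Plxnb2 lies between 825 and 923 CPM in all 3.

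Among the semaphorin receptors, Plxnc1 fell, while the summed plexin level was close in tumours and normal liver on the TMM scale. Plxnc1, the receptor of Sema7a, had 3 and 4 counts in the tumours against 401 and 438 in the normal tables. This is 0.208 ± 0.009 CPM (SD, n = 2) against 46.0 CPM, with a log2 fold change of -7.73 (SE 0.77, edgeR adjusted p = 0.0215). Normal liver exceeded the pooled tumours by a ratio of 220 (exact 95% counting interval 106 to 551). Neither tumour came near either normal table. In sum, Kupffer cell and macrophage markers and endothelial markers were lower in the same tumour libraries, with Clec4f and Cd5l at 0 in both. The macrophage list was not uniform. Lyz2 (43.4 against 21.9 CPM) and Marco (8.15 against 1.64 CPM) were above normal liver in tumour 1, and Cd68 (3.49 against 2.41 CPM) in tumour 2. The part of these cells in the fall of Plxnc1 was not tested.

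Plxnb2, the receptor of class 4 semaphorins in epithelia, was the most abundant receptor throughout. It had 13696 and 16394 counts in the tumours against 7266 and 7779, which after scaling is 901 ± 30.3 CPM (SD, n = 2) against 825 CPM (log2 fold change 0.13, SE 0.68, edgeR adjusted p = 0.918). Plxnb2 made up 80.5% and 77.2% of the summed plexin level in the tumours and 75.5% in normal liver. The sums themselves were 174 and 174 CPM per kb in the tumours and 167 CPM per kb in normal liver. Plxnb1, the receptor of Sema4d, had 614 and 833 counts against 1278 and 1461 (log2 fold change -1.80, SE 0.51, edgeR adjusted p = 0.116). Plxnb3 had 23 and 9 counts against 1 and 1.

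Plexin D1 and the A plexins did not pass the test by edgeR, and Plxna1 alone was called by DESeq2 (adjusted p = 0.0361). Plxnd1, the receptor of Sema3e, which is best known in endothelium, had 550 and 833 counts in the tumours against 359 and 424, and its log2 fold change was -0.07 (SE 0.56, edgeR adjusted p = 0.945). Plxna1, a signalling partner of the neuropilins, had 1929 and 3726 counts against 317 and 352 (log2 fold change 2.17, SE 0.66, edgeR adjusted p = 0.13). A part of its annotated exon length (10.7%) overlaps a gene on the other strand, and since the use of strand in counting is not stated, reads of the 2 genes cannot be told apart. Plxna2 had 1289 and 747 counts against 598 and 630, with a log2 fold change of -0.09 (SE 0.70). Plxna3 had 112 and 264 counts against 20 and 25, and Plxna4 had 4 and 19 against 44 and 45.

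Neuropilins were lower in sum. Nrp1, the co-receptor of class 3 semaphorins and of VEGF that sinusoidal endothelium carries in quantity, had 1175 and 1738 counts in the tumours against 3470 and 3877. At 86.2 ± 9.99 CPM (SD, n = 2) against 402.7 CPM its log2 fold change was -2.22 (SE 0.54, edgeR adjusted p = 0.0887), and DESeq2 gave an adjusted p of 0.0178. All tumour counts lay below all normal counts. The endothelial markers listed above were lower in the same libraries. Among them the VEGF receptor gene Kdr fell, with 1 and 9 counts against 646 and 728 (log2 fold change -8.00, SE 1.14, edgeR adjusted p = 0.0358). The VEGF receptor genes Flt1 and Flt4 did not pass. Flt1 exceeded normal liver in tumour 2 (20.99 over 14.91 CPM) and was far under it in tumour 1 (0.40 CPM). Flt4 was under normal liver (44.83 CPM) in both, by little in tumour 2 (40.79 CPM) and by more in tumour 1 (12.93 CPM). The part of endothelial cells in the lower Nrp1 level was not tested. Nrp2 had 365 and 1848 counts in tumours 1 and 2 against 325 and 357, and the tumours lay on either side of normal liver after scaling, at 24.6 and 99.2 CPM against 37.4 CPM. Together the neuropilins stood at 24.4 and 35.5 CPM per kb in the tumours and at 116 CPM per kb in normal liver.

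**Figure D3:**
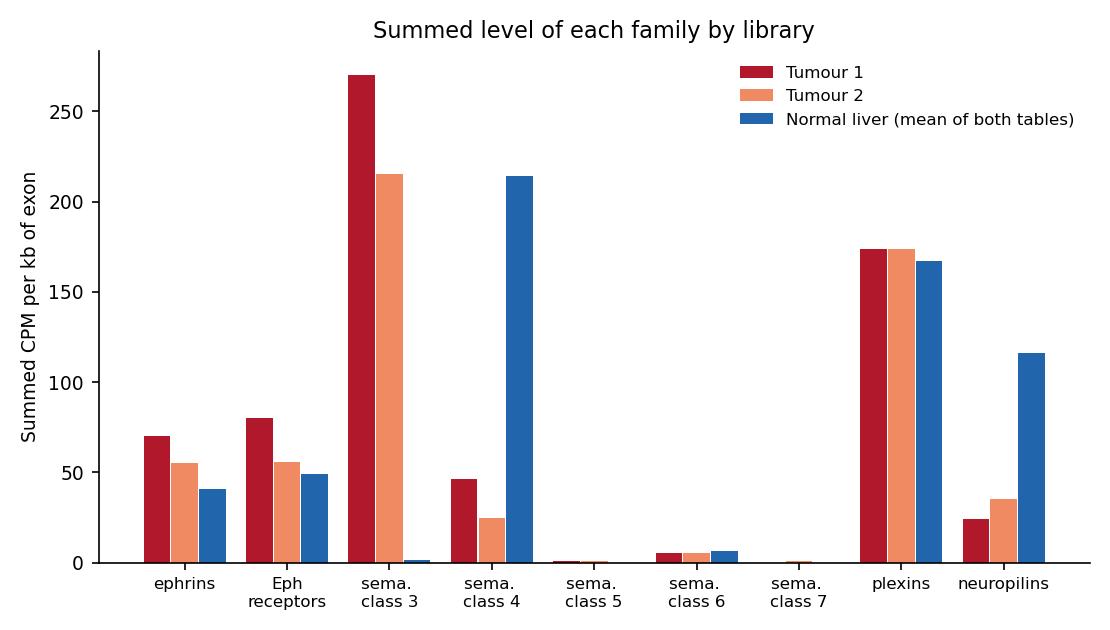
Summed CPM per kilobase of exon (y axis) of each guidance family in tumour 1, tumour 2 and normal liver, as bars from 0; the Eph receptor bar holds 13 genes. Class 3 semaphorins stand at 270 and 215 in the tumours against 1.71, class 4 semaphorins and neuropilins are lower in the tumours, and plexins lie within 167 to 174 in all 3.

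Ephrin-B2 led the ephrins of the tumours. Efnb2, the ephrin that marks arterial vessels and binds EphB4 and EphA4, had 1746 and 1683 counts in the tumours against 37 and 38 in the normal tables. It rose to 104 ± 19.3 CPM (SD, n = 2) in the tumours, against 4.17 CPM in normal liver, a 24.9-fold difference (log2 fold change 4.64, SE 0.72, edgeR adjusted p = 0.041). Both tumours were high and the groups did not overlap. Efnb1, whose human gene underlies craniofrontonasal syndrome, had 980 and 922 counts against 241 and 250 (log2 fold change 1.10, SE 0.60, edgeR adjusted p = 0.301). Efnb3 had 4 and 13 counts against 0 and 0.

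Of the ephrin-A genes, Efna4 rose. It had 165 and 233 counts in the tumours, 11.8 ± 0.983 CPM (SD, n = 2), and 0 counts in both normal tables. With the mean of the tumours set against a floor of 3 counts in the normal library, it was at least 35.9-fold higher (edgeR adjusted p = 0.0473); such a bound leaves out counting error in the tumours. Without the table labelled wild type the adjusted p was 0.0504, so the call was lost there. A stretch of 10.5% of its exon length overlaps a gene on the other strand. Efna2 and Efna3 were also at 0 in both normal tables, with 10 and 50, and 12 and 47, counts in the tumours, and did not pass (edgeR adjusted p = 0.217 and 0.208); of Efna3, 10.5% of the 31-base words occur in another gene, so its counts are uncertain.

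Efna1, the ephrin first found as a product of vessel cells, was the leading ephrin of normal liver, with 74.4% of the summed ephrin level there. It had 459 and 325 counts in the tumours against 482 and 540, or 24.2 ± 9.53 CPM (SD, n = 2) against 56.0 CPM (log2 fold change -1.21, SE 0.64, edgeR adjusted p = 0.288). In the tumours Efnb2 took the first place, with 35.0% and 33.9% of the sum. Efna5 had 42 and 117 counts against 48 and 51, and normal liver lay between the tumours after scaling. Summed per kilobase, the ephrins stood at 70.1 and 55.5 CPM per kb in the tumours and at 41.1 CPM per kb in normal liver.

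The leading EphA gene of the tumours was not that of normal liver. Epha4, which binds ephrins of both classes and is studied in axon guidance and boundary formation, had 3493 and 2075 counts in the tumours against 3 and 3 in the normal tables. It rose to 173 ± 87.6 CPM (SD, n = 2) in the tumours, against 0.329 CPM in normal liver (log2 fold change 9.0, SE 1.16, edgeR adjusted p = 0.0303). The pooled ratio was 506 (exact 95% counting interval 173 to 2450). Epha1, the founding member of the family, first isolated from a human hepatocellular carcinoma line, went the other way. It had 2 and 3 counts in the tumours against 883 and 997, or 0.148 ± 0.019 CPM (SD, n = 2) against 103 CPM (log2 fold change -9.35, SE 0.72, edgeR adjusted p = 0.0182). Normal liver exceeded the pooled tumours by a ratio of 690 (exact 95% counting interval 295 to 2130). For neither gene did the tumours overlap the normal tables. Leaving out either normal table kept both calls, but these tables share counts and are not independent.

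Among the other EphA genes tested, Epha7 had 216 and 138 counts in the tumours against 14 and 15 (log2 fold change 2.83, SE 1.10, edgeR adjusted p = 0.19). Epha3 had 0 and 0 counts against 4 and 4, and Epha5 had 1 and 0 against 0 and 0. Epha6, Epha8 and Epha10 had 0 counts in every library, as did Ephb1. A count of 0 here is read against a floor of 3 counts, which is 0.202 and 0.161 CPM in tumours 1 and 2 and 0.329 CPM in normal liver, and this floor covers counting error only.

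EphB receptors were above normal liver in both tumours in 4 of the 4 genes tested, against 43.1% of all genes tested. Ephb2, Ephb3 and Ephb6 passed the filter on low counts only through the tumours, so this count is only a description. Of the 4 EphB genes, 0 passed the test by edgeR. At an unadjusted p under 0.05, 2 were higher (12.5% of all genes tested), and 2 were higher by DESeq2 (12.4%). Ephb4, the receptor of ephrin-B2 that marks veins, was the most abundant, with 2391 and 1837 counts in the tumours against 686 and 769. Scaled, it stood at 130 ± 44.2 CPM (SD, n = 2) against 79.8 CPM (log2 fold change 0.70, SE 0.62, edgeR adjusted p = 0.497). Ephb6, a receptor without kinase activity, had 165 and 943 counts against 3 and 3 (log2 fold change 6.52, SE 1.60, edgeR adjusted p = 0.0913, DESeq2 adjusted p = 8.61e-05). Ephb3 had 84 and 53 counts against 0 and 0, at least 12.9-fold higher by the tumour mean against the floor, with an exact 95% lower limit of 9.99 for the pooled ratio, and did not pass (edgeR adjusted p = 0.111). Ephb2, a receptor of intestinal crypts, had 11 and 68 counts against 1 and 2.

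**Figure D4:**
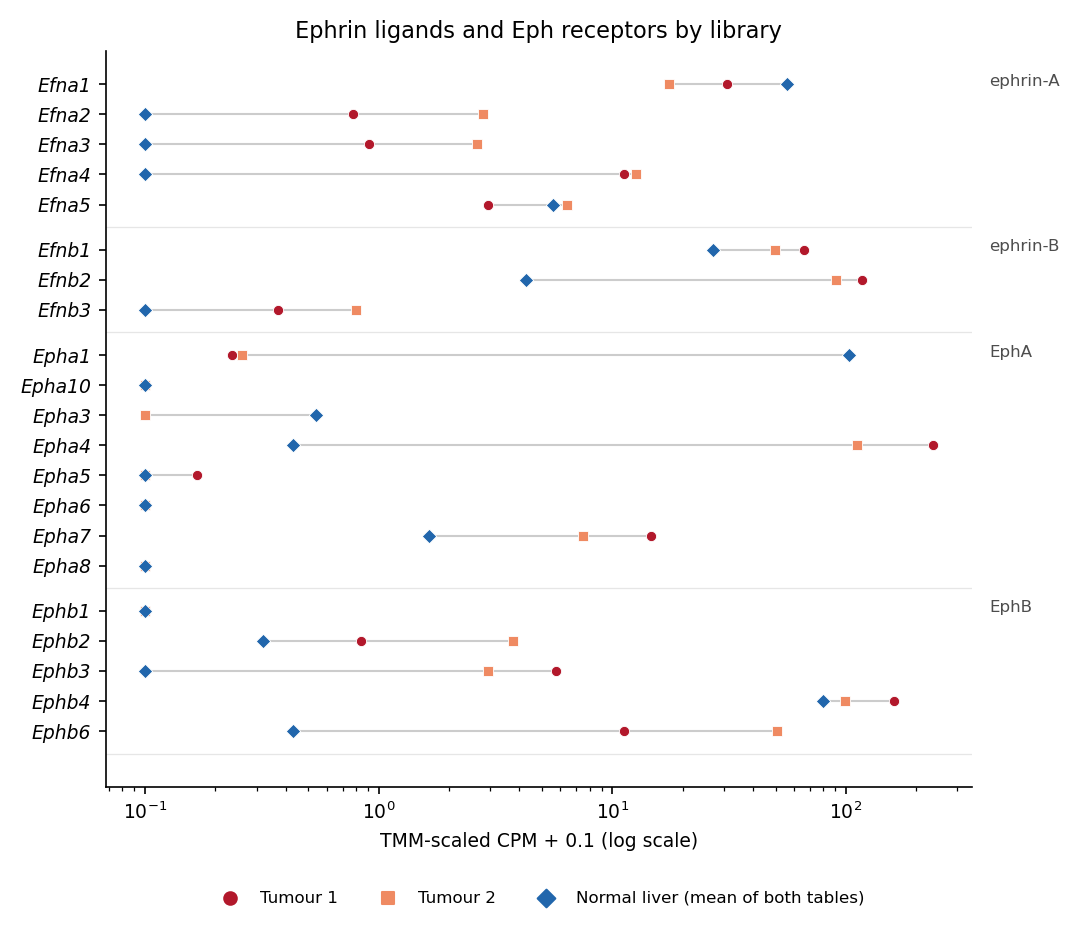
TMM-scaled CPM plus 0.1 on a log axis for each ephrin and Eph receptor gene in tumour 1, tumour 2 and normal liver (markers that coincide overlap, with normal liver on top). Epha4 and Epha1 lie at opposite ends, with Epha4 at 235 and 111 CPM in the tumours against 0.329 CPM and Epha1 at 0.135 and 0.161 CPM against 103 CPM.

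The ligands can be set beside their known receptors. Efnb2 rose, and of its receptors Epha4 rose while Ephb4 had a log2 fold change of 0.70 that did not pass. Sema3e rose, and its receptor gene Plxnd1 had a log2 fold change of -0.07. Sema3c rose, and Nrp1 and Nrp2 had log2 fold changes of -2.22 and 0.73. Plxnc1 fell, and its ligand gene Sema7a had 1 and 64 counts in the tumours against 1 and 1. Sema4d and Plxnb1 had log2 fold changes of 2.87 and -1.80, neither past the threshold. Levels per kilobase of at least 10 CPM were reached by 12 of the 52 genes in the tumour mean and by 8 in normal liver. The 4 genes in both sets were Plxnb2, Nrp1, Efna1 and Ephb4.

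The tumours were also set against each other. Of 29 guidance genes with at least 10 CPM in a tumour, 2 were over 4-fold higher in tumour 1 than in tumour 2 and 3 were over 4-fold lower, against 3.2% and 6.79% of the 9626 genes compared. With 1 library each there is no test. Sema6a was 33.8-fold higher in tumour 1 (16.6 against 0.376 CPM) and Sema4g 6.03-fold higher (52.8 against 8.64 CPM). Ephb6 was 4.52-fold lower in tumour 1 (11.1 against 50.6 CPM), Sema4f 4.15-fold lower (2.56 against 11.0 CPM) and Nrp2 4.02-fold lower (24.6 against 99.2 CPM). Some stellate cell and fibroblast markers differed between the same libraries. Col1a2 had 1 and 5230 counts and Pdgfrb 2 and 1527 counts in tumours 1 and 2, whereas Rgs5 had 3 and 5. Markers of other lists differed the other way, among them Epcam at 356 and 4 counts and Lyz2 at 644 and 19. The part of all these cells in the differences above was not tested.

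**Figure D5:**
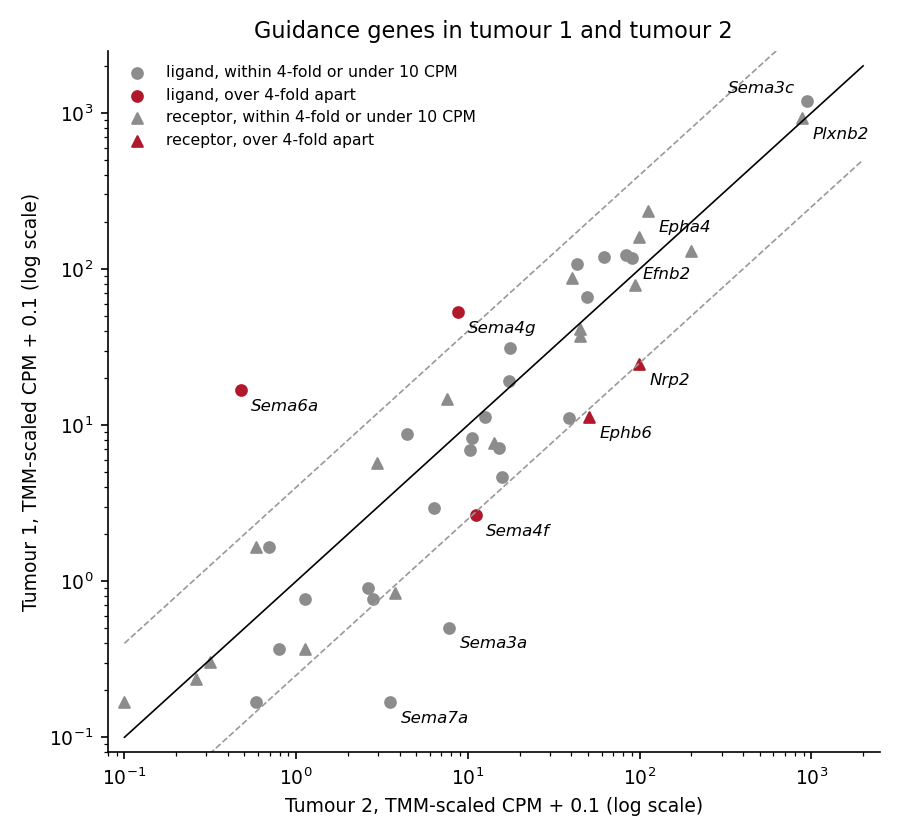
Each guidance gene with a count in a tumour, as TMM-scaled CPM plus 0.1 in tumour 2 (x) and tumour 1 (y), both axes logarithmic, with the line of equality and dashed lines at 4-fold. Sema3c and Plxnb2 lie near the line at the top, and the 5 red points are Sema6a and Sema4g, higher in tumour 1, and Ephb6, Sema4f and Nrp2, higher in tumour 2.

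Each normal table was also set against the tumours alone, with the tumours shared between the comparisons. Against the table labelled double heterozygous, 4 guidance genes rose and 2 fell (2.19% and 5.69% of all genes tested). Against the table labelled wild type, 6 rose and 2 fell (3.07% and 6.62%). Efna4 was on either side of the threshold (edgeR adjusted p = 0.0528 and 0.0461), and so was Sema3f (0.0509 and 0.047). Between the normal tables, the 17 guidance genes with at least 10 CPM in a table had log2 ratios of the double heterozygous to the wild type table between 0.04 and 0.23, and 0 differed over 2-fold, against 4.41% of all genes compared. Because these tables share counts, this does not show whether the genotype matters.

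Partners and effectors of these families were read from 6 lists that held 99 genes in the tables, chosen with earlier results of these data known. Of 83 tested, 5 rose and 3 fell by edgeR, where 2.23% and 5.19% of all genes did, with a median log2 fold change of 0.87. The unadjusted counts were 18 and 8 (12.5% and 15.5% of all genes tested), and those of DESeq2 18 and 7 (12.4% and 12.3%). The counts of the single lists below are to be read beside these same shares. Among 9 semaphorin co-receptor genes tested 2 rose and 1 fell (2 and 1 unadjusted, and 3 and 1 by DESeq2). Erbb2, a receptor tyrosine kinase that can pair with plexin B, had 954 and 1088 counts in the tumours against 16 and 17 (log2 fold change 5.12, SE 0.75, edgeR adjusted p = 0.0367), and the pseudokinase gene Ptk7 had 532 and 535 against 9 and 8 (edgeR adjusted p = 0.044). Timd2, a receptor of mouse Sema4a, had 0 and 0 counts in the tumours against 1662 and 1911 and was at least 1080-fold lower (edgeR adjusted p = 0.022). Met, which associates with plexin B1, had 3493 and 8759 counts against 3084 and 3274 and a log2 fold change of 0.02.

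Of 22 plexin effector genes tested 1 rose and 1 fell by edgeR (9 higher and 2 lower at an unadjusted p under 0.05, and 7 and 1 by DESeq2). Dpysl3, a collapsin response mediator, had 333 and 538 counts in the tumours against 5 and 6 (edgeR adjusted p = 0.0484), and the exchange factor gene Farp2 had 111 and 135 against 682 and 793 (edgeR adjusted p = 0.044), with 17.9% of its 31-base words shared with another gene and an overlap with Stk25 on the other strand. Of 26 Eph effector genes tested 2 rose and 0 fell by edgeR (5 higher and 2 lower at an unadjusted p under 0.05, and 4 and 2 by DESeq2). The kinase gene Src had 2477 and 2226 counts against 39 and 45 (log2 fold change 4.96, SE 0.75, edgeR adjusted p = 0.0388), and the adaptor gene Nck2 had 697 and 725 against 12 and 13 (edgeR adjusted p = 0.0421, 12% of its 31-base words shared). In the list of VEGF ligands and receptors, which share the neuropilins, Kdr fell and the other 7 did not pass.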

How the data were processed

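Bulk RNA sequencing libraries of mouse liver were made from total RNA (TRIZOL, then an Illumina TruSeq kit, per the labels' protocols). Each library has 1 deposited table of read counts for gene symbols, in whole numbers and not normalized. FastQC, Trimmomatic, TopHat2 2.0.10, HTSeq, DESeq2 and, as build, mm9 appear in the submitters' processing notes, without role or order; strand use in counting is not stated. Reads that aligned to several places were listed apart (45.6% and 42.3% in tumours 1 and 2, 51.5% in the double heterozygous and 30.7% in the wild type normal table), so genes with shared sequence lose counts. That line and 4 others that name no gene (outside genes 13.6%, 16.4%, 24.4% and 31.5% in the same order, ambiguous at most 0.107%) were left out.

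The members and lists were chosen with earlier results of these data known. Both normal tables entered the fit as 1 library, their rounded mean. Counts were tested in R 4.3.3 with edgeR 4.0.16 (TMM, filterByExpr with a minimum count of 10, glmQLFit, glmQLFTest, Benjamini-Hochberg over all genes). The fit gave a common dispersion of 0.442 and, at the median, 3.32 prior degrees of freedom. The SE is the absolute log2 fold change over the square root of F and is approximate. CPM uses the TMM-scaled size of this fit; values per kb use exon lengths of GENCODE M21 (GRCm38), which matched 52 of 52 members. Ratios of 1 library to 1 used a prior count of 2. Comparisons with each normal table used 3 groups in 1 fit of 4 libraries. DESeq2 1.42.0 was an alternative. Shared sequence is the percentage of a gene's 31-base words found in another gene, uncertain above 10%. The fit was tested on counts simulated with a smaller dispersion than that of the fit, with changes only in genes of high mean count. Such counts cannot show how the fit serves genes with low counts.

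Genes are named with statistics by rule: those that passed the test, the leading gene of each class in tumours or normal liver, genes with at least 10 CPM in a tumour and over 4-fold apart between tumours, genes above 3 counts in every library of one group and at 0 in the other, and partner genes that passed; the rest are given by counts, some with statistics chosen after their values were seen. RefSeq promoters matched 46 of 52 members. The motifs were chosen after the values were seen. Intervals cover counting error only, since reads carry no molecular identifiers.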

Additional observations from a re-analysis of the deposited data

How the results depend on the processing

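Of the 7 calls, those of Sema3c, Sema3e, Efnb2, Epha4, Epha1 and Plxnc1 held in all 8 alternatives that give a test, and that of Efna4 in 7, with its adjusted p between 0.000788 and 0.0504. Members higher and lower numbered 12 and 5 with DESeq2, 8 and 4 without the filter, and 18 and 7 with both normal tables as separate libraries, a fit that treats shared counts as replicates; over all genes these were 1728 and 1719, 903 and 1383, and 3058 and 3157, and partner genes 18 and 7, 10 and 6, and 28 and 12. Without scaling, all genes numbered 635 and 472 and partner genes 10 and 1; RLE scaling gave 5 lower partner genes. Without one normal table, 4 to 5 members were higher and 2 lower, 278 to 422 and 695 to 838 of all genes, and 3 to 5 and 3 to 4 partner genes, with 3 higher without the wild type table. The members' median was 2.10, 3.48 without scaling, 1.44 with separate normal tables, and 1.68 to 2.06 when a library was left out. The median of all genes was 0.19, and 0.42 with upper quartile scaling, 0.12 with RLE and 1.56 without scaling. Of the 44 members tested 11 changed sign in some alternative, and 0 of these were called. Without scaling these were Efna1 (0.15), Efna5 (1.12), Plxna2 (1.28), Plxnd1 (1.30), Sema3d (0.056), Sema6a (0.73) and Sema6d (0.63), with upper quartile scaling Plxna2 (0.16) and Plxnd1 (0.16), and without the double heterozygous normal table Sema6c (-0.25, and 1.18 without the wild type table). Leaving out a tumour leaves 1 library against 1, a value with no count of calls. Without tumour 1, Efna5 (0.20) and Plxnd1 (0.057) changed sign, and without tumour 2 Nrp2 (-0.60), Plxna2 (0.37), Sema6a (0.36), Sema6b (-0.41) and Sema7a (-0.63). The causes were not tested. No paired analysis was possible because the sources used here do not link a normal liver to a tumour. The 1 residual degree of freedom limits every call here.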

Other observations

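Netrin and Slit genes, guidance families beside those above, were measured in the same libraries. Of 9 netrin family genes tested and 9 Slit and Robo genes tested, 0 passed the test by edgeR in either list. In each list, 1 was higher and 1 lower at an unadjusted p under 0.05 (12.5% and 15.5% of all genes tested). By DESeq2, 2 were higher and 1 lower in each list (12.4% and 12.3%). Unc5b, a netrin receptor that is best known in vessels, had 7493 and 4826 counts in the tumours against 159 and 175 in the normal tables, or 382 ± 174 CPM (SD, n = 2) against 18.3 CPM (log2 fold change 4.38, SE 0.89, edgeR adjusted p = 0.0644); it was singled out after its values were seen. Ntn3 had 1 and 6 counts in the tumours against 120 and 121 (edgeR adjusted p = 0.0796). Slit2 had 36 and 510 counts in tumours 1 and 2 against 6 and 6, and Unc5c had 109 and 10 against 0 and 0. Robo4, a Robo receptor of endothelium, had 0 counts in both tumours against 105 and 125 in the normal tables. It was at least 69.4-fold lower and did not pass (edgeR adjusted p = 0.0639).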
